A study of Mus musculus with 25 samples.

Results

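Pulmonary surfactant, the film of lipid and protein that keeps alveoli open, is made, stored and recycled by alveolar type 2 cells. This account follows 10 genes of surfactant and of these cells, chosen by symbol, through lungs of mice given 25 Gy to the thorax, a compound that acts on sphingosine 1-phosphate receptors, or both. Among probe sets annotated with exactly 1 symbol, the one with the highest mean log2(signal + 16) over 25 arrays stood for its gene. Of 18193 genes with such a probe set, 9 were members, and all 9 were among the 12937 genes that passed a filter on low signal. Lamp3, a membrane protein of lamellar bodies, has no value here because its probe set also carries the symbol of Ppid.

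Total lung RNA came from female wild-type C57BL/6J mice aged 14 to 17 weeks. The fTyS, SEW and FTY groups (n = 3 each) received (S)-FTY-phosphonate, SEW-2871 or FTY720 at 0.1 mg/kg into the peritoneum, 2 times a week. FTY720 is fingolimod, (S)-FTY-phosphonate is a phosphonate analogue of it, and SEW-2871 is an S1pr1 agonist of another chemical class. A single dose of 25 Gy was given together with (S)-FTY-phosphonate (radiation+fTyS), SEW-2871 (radiation+SEW) or FTY720 (radiation+FTY; n = 3 each). The radiation group (n = 3) received 25 Gy alone and the control group (n = 4) phosphate-buffered saline. The labels describe each array as lung tissue of an animal, and give neither a batch nor the time from irradiation to collection. The deposited values are linear signal intensities, and the number of arrays limits the precision. In RNA of whole lung, fewer type 2 cells and less RNA per cell cannot be told apart.

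Type 2 cells store surfactant in lamellar bodies and release it into the alveolar lining. Sftpb and Sftpc encode small hydrophobic proteins that spread lipid at the air surface, whereas Sftpa1 and Sftpd encode collectins, lectins that bind microbes and take part in surfactant turnover. Abca3 carries phospholipid into lamellar bodies, and Lpcat1 re-acylates lysophosphatidylcholine to form the saturated phosphatidylcholine of surfactant. Napsa is an aspartic protease that helps cut the precursors of Sftpb and Sftpc, and Slc34a2 takes up the phosphate that surfactant turnover releases. Etv5 is an ETS transcription factor downstream of fibroblast growth factor and Ras signalling that helps to keep type 2 cell identity in mice. Surfactant promoters are classic targets of the homeobox factor NKX2-1 and of forkhead factors of the FOXA class.

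The promoter windows of 4 members are shown because those of Sftpa1 and Sftpb carry the NKX2-1 core and because Etv5 and Lpcat1 hold the differences described below. They come from RefSeq (GRCm38.p6), each with 250 bases before and 50 after a transcription start. Windows were found for 7 of the 10 genes, 8 windows in all; Sftpc, Sftpd and Napsa had none. The Sftpa1 window is chr14:41131538-41131837 and the Sftpb window chr6:72304360-72304659, both on the plus strand. The Lpcat1 window is chr13:73466981-73467280 on the plus strand, and the upstream window of Etv5 is chr16:22439521-22439820 on the minus strand. Capitals mark matches to the motifs searched on both strands, which do not overlap each other in these windows.
Sftpa1: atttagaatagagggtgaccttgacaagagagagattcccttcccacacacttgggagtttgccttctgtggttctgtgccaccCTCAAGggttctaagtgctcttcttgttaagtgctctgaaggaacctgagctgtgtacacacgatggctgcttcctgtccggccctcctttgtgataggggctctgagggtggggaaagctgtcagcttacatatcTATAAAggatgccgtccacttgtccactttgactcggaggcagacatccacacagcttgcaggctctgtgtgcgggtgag
Sftpb: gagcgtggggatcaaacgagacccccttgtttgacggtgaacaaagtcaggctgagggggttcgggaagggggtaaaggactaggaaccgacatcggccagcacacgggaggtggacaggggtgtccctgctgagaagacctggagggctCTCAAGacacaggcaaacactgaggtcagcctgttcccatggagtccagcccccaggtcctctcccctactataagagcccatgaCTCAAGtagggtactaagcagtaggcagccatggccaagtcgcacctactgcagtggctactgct
Lpcat1: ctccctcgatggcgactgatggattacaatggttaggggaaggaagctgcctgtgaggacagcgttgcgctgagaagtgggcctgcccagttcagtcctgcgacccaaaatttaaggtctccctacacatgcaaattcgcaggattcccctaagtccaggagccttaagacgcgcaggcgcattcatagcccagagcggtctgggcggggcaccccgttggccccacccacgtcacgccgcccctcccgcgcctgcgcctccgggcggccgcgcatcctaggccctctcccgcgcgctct
Etv5: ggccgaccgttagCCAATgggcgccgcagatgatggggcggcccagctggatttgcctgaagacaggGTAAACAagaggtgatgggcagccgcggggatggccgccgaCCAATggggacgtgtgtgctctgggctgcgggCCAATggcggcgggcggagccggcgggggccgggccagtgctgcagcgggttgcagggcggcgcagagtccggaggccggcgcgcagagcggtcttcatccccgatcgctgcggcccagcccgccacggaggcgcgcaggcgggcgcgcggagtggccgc

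The NKX2-1 core CTCAAG began 166 bases before the start in Sftpa1, and 100 and 15 bases before it in Sftpb. Of all 32851 windows of this length, 15.9% held it. The TATA box TATAAA lay 30 bases before the Sftpa1 start, and 13.6% of windows held it. The forkhead core TGTTTAC, in its reverse complement, began 183 bases before the upstream start of Etv5, and in Lamp3 it began 92 bases before the start; 3.65% of windows held it. CCAAT occurred at 237, 142 and 110 bases before the upstream Etv5 start (37.4% of windows). The palindrome TTGCGCAA, a C/EBP site by sequence, lay 48 bases before the start of Slc34a2 (0.183% of windows). The ETS core CCGGAAG was in none of the 8 windows (8.86% of all windows), and none of the motifs was in the Lpcat1 window. These are matches of letters and no test of binding was made.

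Every member was abundant, and the brightest were near the top of the scale of the arrays. Sftpc ranged over the 25 arrays between 9531 and 11074 signal units and Sftpa1 between 9023 and 11013. On single arrays Sftpc ranked between 5 and 25 among all probe sets by signal (median rank 11) and Sftpa1 between 4 and 40 (median rank 7). Spread within groups narrowed with level across all genes tested. The median SD within groups was 0.17 log2 units for the 3557 genes with a mean of up to 8 and 0.042 for the 40 genes over 13. Sftpc, with an SD within groups of 0.058, and Sftpa1, with 0.077, belong to the brightest band. A second, dimmer probe set of Sftpa1, with signals between 4498 and 6467, ranged over 0.52 log2 units across arrays, against 0.29 for the bright probe set. Etv5, at 990 to 2382 signal units, ranged over 1.25 and Lpcat1, at 2863 to 5016, over 0.81. Whether the scale compresses differences of Sftpc and Sftpa1 was not tested, so their narrow intervals hold for the deposited signal only.

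**Figure D1:**
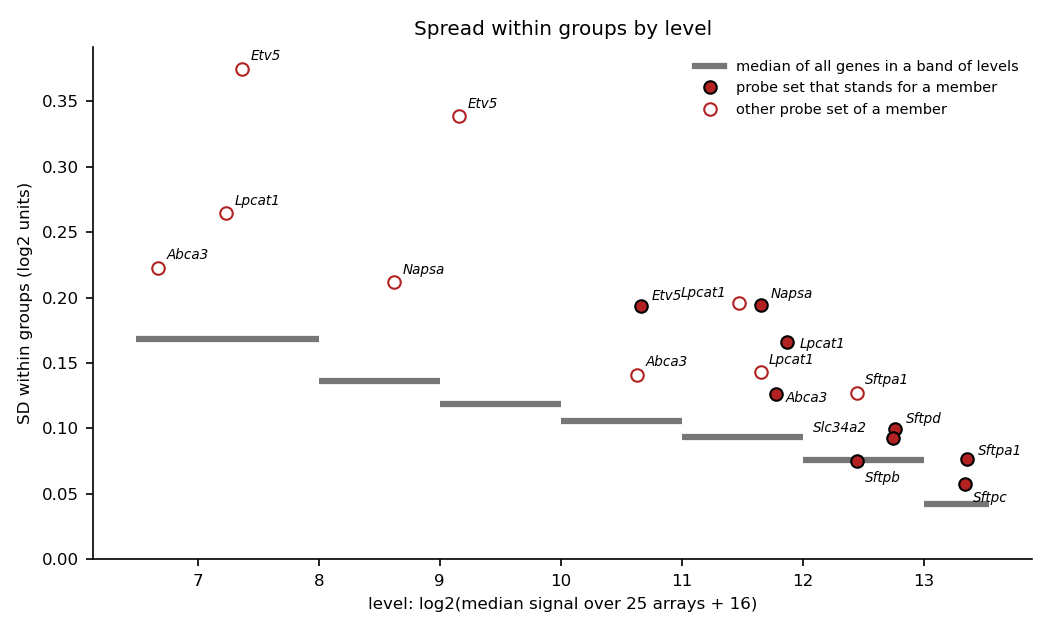
SD within groups (y axis, log2 units) against level (x axis, log2 of the median signal over 25 arrays plus 16) for the probe sets of the members above the filter. Filled circles are the probe sets that stand for a gene, open circles its other probe sets, and grey bars the median of all genes in a band of levels. Sftpc and Sftpa1 lie at the right end, where the median SD was 0.042, and the dimmer probe set of Sftpa1 lies above the bright one.

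Etv5 and Lpcat1 were lower in SEW lungs than in control lungs, and Etv5 was lower in FTY lungs. Radiation alone and fTyS alone gave no call for a member. No member was called when a compound was added to radiation. Calls are those of limma over all 12937 genes at a Benjamini-Hochberg adjusted p of at most 0.05, two-sided, and errors of log2 differences are standard errors of that fit. The 4 comparisons with control share the same 4 control arrays, so their values for a gene are not independent of each other.

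Etv5 had signals of 1548, 1453 and 1773 in fTyS lungs, 1382, 1639 and 1377 in SEW lungs, and 1335, 1623 and 990 in FTY lungs. It had 1943, 1578 and 1794 in radiation+fTyS lungs, 1497, 1576 and 1845 in radiation+SEW lungs, and 1566, 1999 and 1610 in radiation+FTY lungs. Radiation lungs had 1804, 1470 and 1479, and control lungs 2029, 1802, 2382 and 2043. All arrays of the 3 compound groups without radiation lay below the lowest control array, whereas radiation overlapped control by 1 array. In ascending order of means the groups were FTY (1316 ± 317), SEW (1466 ± 150), radiation (1584 ± 190), fTyS (1592 ± 164), radiation+SEW (1639 ± 183), radiation+FTY (1725 ± 239), radiation+fTyS (1772 ± 183) and control (2064 ± 239; SD). The ranges of neighbours in this order overlapped throughout.

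Against control, Etv5 differed by -0.66 ± 0.14 on the log2(signal + 16) scale in FTY lungs (adjusted p = 0.0189), a level 36.9% lower. In SEW lungs the difference was -0.49 ± 0.14 (adjusted p = 0.0262), a level 28.6% lower. The differences of fTyS (-0.37 ± 0.14, adjusted p = 0.227) and radiation (-0.38 ± 0.14, adjusted p = 0.152) missed the threshold. The 95% intervals were -0.96 to -0.37 for FTY, -0.78 to -0.19 for SEW, -0.66 to -0.08 for fTyS and -0.67 to -0.09 for radiation.

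Lpcat1 had signals of 3899, 3004 and 3707 in fTyS lungs, 3163, 3784 and 3083 in SEW lungs, and 3385, 3881 and 3171 in FTY lungs. It had 3795, 3089 and 4009 in radiation+fTyS lungs, 3553, 3720 and 4171 in radiation+SEW lungs, and 2863, 4013 and 3928 in radiation+FTY lungs. Radiation lungs had 3307, 3431 and 3634, and control lungs 4477, 4313, 5016 and 4312. All 21 arrays outside the control group lay below the lowest control array, which held for 0.108% of the genes tested. Lpcat1 was singled out for this after its values were seen. In ascending order the means were SEW (3343 ± 384), radiation (3457 ± 165), FTY (3479 ± 364), fTyS (3536 ± 471), radiation+FTY (3601 ± 641), radiation+fTyS (3631 ± 482), radiation+SEW (3815 ± 320) and control (4529 ± 334; SD). Only radiation+SEW and control, among neighbours in this order, did not overlap.

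Against control, Lpcat1 differed by -0.44 ± 0.12 in SEW lungs (adjusted p = 0.0203), a level 26.3% lower. The differences of radiation (-0.39 ± 0.12, adjusted p = 0.0747), FTY (-0.38 ± 0.12, adjusted p = 0.0939) and fTyS (-0.36 ± 0.12, adjusted p = 0.176) did not pass. The differences thus ranged between -0.44 and -0.36 while their adjusted p ran between 0.0203 and 0.176. The share of all genes called also differed between these comparisons.

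**Figure D2:**
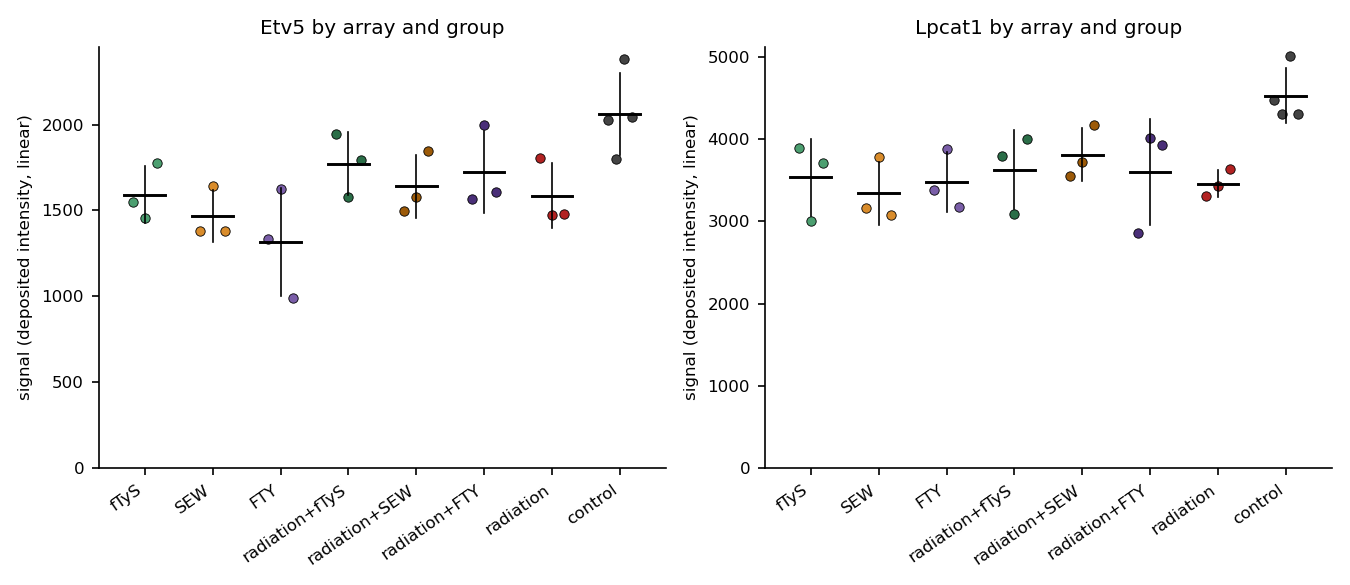
Deposited signal (y axes, linear intensity from 0) of Etv5 and Lpcat1 in each of 25 arrays, by group, with group means (horizontal bars) and SD (vertical bars). The control arrays of Lpcat1, 4312 to 5016, lie above all others, and FTY replicate 3 has the lowest Etv5 signal, 990.

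The calls rested on particular arrays and settings. Without control replicate 3, which had the highest signal of both genes, the SEW differences were -0.42 for Etv5 (adjusted p = 0.0887) and -0.39 for Lpcat1 (adjusted p = 0.0699), and the FTY difference of Etv5 was -0.59 (adjusted p = 0.0778). The SEW calls of both genes also ended without SEW replicate 1 or 3, and the FTY call of Etv5 without FTY replicate 1 (adjusted p = 0.0543) or 3 (adjusted p = 0.109). The differences of both genes stayed negative in each of these fits, at -0.48 for Etv5 without FTY replicate 3. Of 4 probe sets of Lpcat1 above the filter, 3 were called in SEW lungs, with differences between -0.64 and -0.39 over the 4. Of 3 probe sets of Etv5 only the brightest was called in SEW or FTY lungs, and the dimmer ones differed by -0.29 and -0.28 in SEW lungs and by -0.58 and -0.55 in FTY lungs. With the mean of the 3 probe sets as its level, Etv5 was called in neither.

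Against control, 2 of 9 members were called lower in SEW lungs and 1 of 9 in FTY lungs. Of all genes tested, 14.6% were called in SEW lungs (10.8% lower) and 2.73% in FTY lungs (2.25% lower). In radiation lungs 0 of 9 members were called by limma, against 4.4% of all genes, and 3 members had an unadjusted p under 0.05. In fTyS lungs 0 of 9 were called by limma, against 0.178% of all genes, and 4 members had an unadjusted p under 0.05. The numbers of members with unadjusted p under 0.05 were 3 in SEW lungs and 6 in FTY lungs. Of all 12937 genes tested, 2175 passed that unadjusted threshold in radiation lungs, 1942 in fTyS lungs, 3994 in SEW lungs and 2390 in FTY lungs.

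Negative differences prevailed among the members in every one of these comparisons. They were found for 9 of 9 members in fTyS, SEW and FTY lungs and for 8 of 9 in radiation lungs. Among all genes the shares were 48.7% for fTyS, 53.8% for SEW, 53.8% for FTY and 52.5% for radiation. The members' median differences were -0.13, -0.08 and -0.18 for fTyS, SEW and FTY, and -0.12 for radiation, where medians over all genes lay between -0.02 and 0.005. Because the members vary together within groups, these counts are not counts of independent genes. Groups lay wholly below control for 3 members in fTyS lungs (Slc34a2, Lpcat1 and Etv5), 3 in SEW lungs (the same genes), 2 in FTY lungs (Lpcat1 and Etv5) and 3 in radiation lungs (Abca3, Slc34a2 and Lpcat1). Over all genes this separation held for 6.69% in fTyS, 18.2% in SEW, 9.68% in FTY and 7.58% in radiation lungs.

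**Figure D3:**
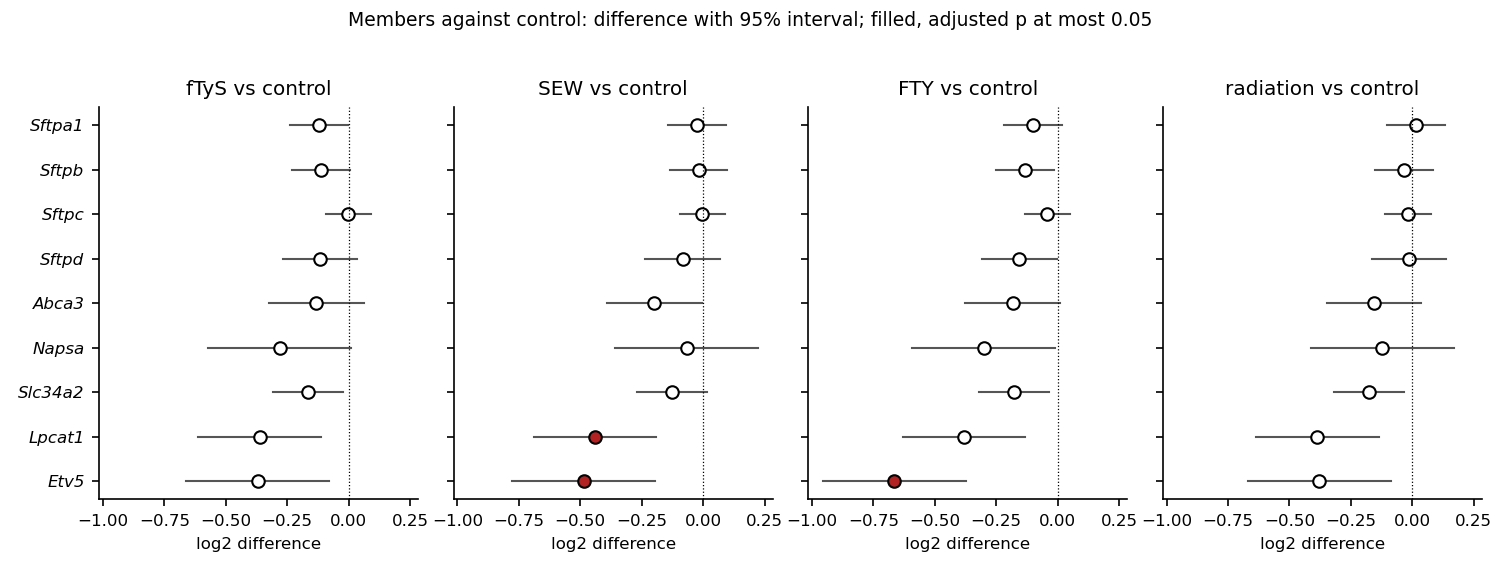
Log2 differences (x axis, log2(signal + 16) scale) from control of the 9 members in fTyS, SEW, FTY and radiation lungs, with 95% intervals. Filled circles mark an adjusted p of at most 0.05, which Lpcat1 (-0.44) and Etv5 (-0.49) reached in SEW lungs and Etv5 (-0.66) in FTY lungs.

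None of the 4 surfactant protein genes was called against control in any of these groups. Sftpc had 9804 to 10722 signal units in fTyS lungs, 10129 to 10597 in SEW lungs, 9738 to 10374 in FTY lungs and 9895 to 10509 in radiation lungs, against 9893 to 10825 in control lungs. Its differences from control lay between -0.04 and -0.0015, and in FTY lungs the 95% interval was -0.13 to 0.05. All groups overlapped control.

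Sftpb averaged 5269 ± 377 in fTyS lungs, 5616 ± 169 in SEW lungs, 5194 ± 418 in FTY lungs and 5553 ± 161 in radiation lungs, against 5692 ± 263 in control lungs (SD). The largest difference, in FTY lungs, was -0.13 ± 0.06 (adjusted p = 0.210), and the groups overlapped. Sftpa1 averaged 9831 ± 698 in fTyS lungs, 10473 ± 214 in SEW lungs, 9971 ± 885 in FTY lungs and 10785 ± 259 in radiation lungs, against 10663 ± 274 in control lungs (SD). It was the only member with a positive difference in radiation lungs, 0.02 ± 0.06, where its dimmer probe set differed by -0.13 ± 0.09. Neither probe set of Sftpa1 was called in any comparison.

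Sftpd averaged 6619 ± 211 in fTyS lungs, 6776 ± 338 in SEW lungs, 6465 ± 768 in FTY lungs and 7110 ± 215 in radiation lungs, against 7179 ± 392 in control lungs (SD). The spread of the FTY lungs came from replicate 3, at 5580, with the others at 6846 and 6968. The difference of -0.16 ± 0.07 in FTY lungs missed the threshold (adjusted p = 0.257).

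Among Abca3, Napsa, Slc34a2 and Lpcat1, Slc34a2 had the smallest SD within groups, 0.093 log2 units. It had 6761, 6475 and 6949 in fTyS lungs, 6925, 7073 and 6704 in SEW lungs, and 6625, 6551 and 6830 in radiation lungs, all below the control arrays at 7599, 7176, 8147 and 7262. In FTY lungs it had 6922, 7235 and 5887, of which 1 array lay within the control range. Its differences were -0.16 ± 0.07 for fTyS, -0.13 ± 0.07 for SEW, -0.18 ± 0.07 for FTY and -0.18 ± 0.07 for radiation (adjusted p between 0.162 and 0.268). Over all genes, 6.69% lay wholly below control in fTyS lungs, 18.2% in SEW lungs and 7.58% in radiation lungs.

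Abca3 averaged 3433 ± 126 in fTyS lungs, 3282 ± 306 in SEW lungs, 3329 ± 446 in FTY lungs and 3373 ± 109 in radiation lungs, against 3767 ± 308 in control lungs (SD). Its differences ran between -0.20 and -0.13, and only radiation did not overlap control. Napsa averaged 2938 ± 382 in fTyS lungs, 3417 ± 519 in SEW lungs, 2931 ± 646 in FTY lungs and 3280 ± 412 in radiation lungs, against 3562 ± 324 in control lungs (SD). It had among the widest spreads of the members, 0.19 log2 units within groups, and its differences of -0.28 ± 0.14 for fTyS and -0.30 ± 0.14 for FTY were not called (adjusted p = 0.351 and 0.256). A dimmer probe set of Napsa, at 264 to 530 signal units, was called lower in radiation+SEW lungs against SEW lungs (-0.50 ± 0.16, adjusted p = 0.0413), where the bright one differed by -0.09 ± 0.15.

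The next comparison asked whether a compound shifted these genes in irradiated lung. Added to radiation, fTyS, SEW and FTY each gave 0 of 9 members called by limma, with no member at an unadjusted p under 0.05. Of all genes, 0.858% were called for radiation+fTyS against radiation, 2.48% for radiation+SEW and 3.02% for radiation+FTY. In the same order 1610, 2236 and 3010 genes had an unadjusted p under 0.05. Etv5 differed from radiation by 0.16 (95% interval -0.15 to 0.47) in radiation+fTyS lungs, 0.05 (-0.26 to 0.36) in radiation+SEW lungs and 0.12 (-0.19 to 0.43) in radiation+FTY lungs. Lpcat1 differed by 0.06 (-0.20 to 0.33), 0.14 (-0.13 to 0.41) and 0.04 (-0.22 to 0.31) in the same order. At their widest these intervals reached 0.47 for Etv5 and 0.41 for Lpcat1. Sftpa1 (-0.12 ± 0.06) and Sftpd (-0.12 ± 0.08) were not called by limma in radiation+FTY lungs against radiation lungs (adjusted p = 0.222 and 0.352).

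The response to radiation was also measured with a compound on board. Radiation+fTyS against fTyS called 0 of 9 members (0.456% of all genes), radiation+SEW against SEW 0 of 9 (17.7%) and radiation+FTY against FTY 0 of 9 (14.1%) by limma. Etv5 differed by 0.41 ± 0.15 in radiation+FTY lungs against FTY lungs (adjusted p = 0.0762), the only member there with an unadjusted p under 0.05. The average over 4 radiation differences, one without a compound and one with each compound, was called for 20.8% of all genes and for 0 of 9 members, none of which had an unadjusted p under 0.05. Its intervals were narrower: 0.09 (-0.07 to 0.24) for Etv5, -0.03 (-0.16 to 0.10) for Lpcat1 and 0.01 (-0.03 to 0.06) for Sftpc.

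The difference between those radiation responses was tested as an interaction, (radiation+compound minus compound) minus (radiation minus control). It was positive for Lpcat1 with SEW, 0.58 ± 0.18 (adjusted p = 0.0325), where radiation+SEW lungs averaged 11.90 log2 units and SEW lungs 11.71, and radiation lungs 11.76 and control lungs 12.15. It was positive for Etv5 with FTY, 0.78 ± 0.20 (adjusted p = 0.0282), where radiation+FTY lungs averaged 10.76 and FTY lungs 10.35, and radiation lungs 10.64 and control lungs 11.02. In both, the combination had a mean above either treatment alone and below control. With SEW, 1 of 9 members was called (13.9% of all genes, 10.5% higher), with FTY 1 of 9 (6.84%, 4.77% higher), and with fTyS 0 of 9 by limma (1.35%). Etv5 with fTyS (0.53 ± 0.20, adjusted p = 0.205) and with SEW (0.54 ± 0.20, adjusted p = 0.0851) and Lpcat1 with fTyS (0.42 ± 0.18, adjusted p = 0.243) and with FTY (0.42 ± 0.18, adjusted p = 0.145) were not called. Of the probe sets above the filter, 1 of 4 of Lpcat1 was called in the SEW interaction and 1 of 3 of Etv5 in the FTY interaction. Single arrays decided both member calls. The Lpcat1 interaction with SEW was no longer called without control replicate 3, SEW replicate 1 or 3, radiation replicate 1 or 2, or radiation+SEW replicate 2 or 3, and ranged between 0.51 and 0.67 over all fits without 1 array (adjusted p between 0.0245 and 0.0978). The Etv5 interaction with FTY was no longer called without control replicate 3, FTY replicate 3, radiation replicate 2 or 3, or radiation+FTY replicate 2, and ranged between 0.60 and 0.95 (adjusted p between 0.0147 and 0.0762).

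Between compounds at the matched dose, no member was called. The shares of all genes called were 1.55% for fTyS against SEW, 0% for fTyS against FTY, 0% for FTY against SEW, 0% for radiation+fTyS against radiation+SEW, 3.95% for radiation+fTyS against radiation+FTY and 0% for radiation+FTY against radiation+SEW. By limma 769 genes had an unadjusted p under 0.05 for fTyS against FTY, 1178 for FTY against SEW, 1414 for radiation+fTyS against radiation+SEW and 1036 for radiation+FTY against radiation+SEW, and no member did in any of the 6. Etv5 was 0.29 (95% interval -0.02 to 0.61) higher in fTyS lungs than in FTY lungs and differed by -0.18 (-0.49 to 0.13) between FTY and SEW lungs. (S)-FTY-phosphonate carries a phosphonate group in place of the phosphate that FTY720 acquires in cells, and no member separated the pair at this threshold.

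The signals of 8 members varied together between arrays of a group, and those of Sftpc varied less with them. Correlations of deviations from group means over 25 arrays, given as a description since the genes share arrays, lay between 0.66 and 0.94 (median 0.82) for the 28 pairs without Sftpc. For the 8 pairs with Sftpc they lay between -0.02 and 0.36 (median 0.16). Sftpc lay near the top of the scale, with an SD within groups of 0.058 log2 units. Whether the scale lowers its correlations was not tested. Across all arrays the genes most like the mean of the 9 members were Atp11a (r = 0.87), Dram1 (0.86), Dpysl2 (0.85), Eif2ak4 (0.84) and Rai14 (0.84). The gene most like Sftpc was Tpt1 (r = 0.87), followed by Lyz1 (0.75), a lysozyme of type 2 cells.

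Particular arrays carried this joint variation. FTY replicate 3 had the lowest mean over the 9 members, 11.98 log2 units, and was the lowest of its group for 8 of 9 members. The fTyS replicate 2 and radiation+fTyS replicate 2 were the lowest of their groups for 9 of 9. Control replicate 3 had the highest mean, 12.52, and was the highest of its group for 8 of 9. Control had the highest group mean for 5 of the 9 members and FTY the lowest for 5.

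Transcripts of tissue outside the lung varied inversely with the mean of the 9 members within groups. The list of 6 skeletal muscle genes, among them Ckm and Acta1, had array means of 7.33 to 12.85 log2 units in fTyS lungs, 6.90 to 12.32 in SEW lungs, 6.81 to 7.34 in FTY lungs, 6.40 to 9.35 in radiation lungs and 6.54 to 12.01 in control lungs. The 4 adipocyte genes measured, among them Adipoq, had 7.74 to 11.19 in fTyS lungs, 8.33 to 11.53 in SEW lungs, 7.79 to 10.94 in FTY lungs, 7.27 to 8.40 in radiation lungs and 6.93 to 9.35 in control lungs. In irradiated lungs with a compound the muscle means ran between 6.62 and 12.63 and the adipocyte means between 6.71 and 11.48. Against control the muscle genes had median differences of 2.32 in fTyS, 2.48 in SEW, -1.14 in FTY and -0.56 in radiation lungs, and the adipocyte genes 2.08, 2.22, 1.74 and 0.02 in the same order. By limma 0 of 6 muscle genes were called in any of these, with 0 at an unadjusted p under 0.05, and 0 of 4 adipocyte genes, with 2 in fTyS and 3 in SEW lungs at an unadjusted p under 0.05. Of all genes, 0.178% were called in fTyS, 14.6% in SEW, 2.73% in FTY and 4.4% in radiation lungs. The lowest signal on any array was 14.85 among the muscle genes and 11.24 among the adipocyte genes. Within groups the mean of the 9 members correlated with the muscle mean at r = -0.62 and with the adipocyte mean at r = -0.71 over 25 arrays, and Sftpc alone at 0.09 and 0.02. With both means as covariates, the SEW differences were -0.28 for Etv5 (adjusted p = 0.0818) and -0.28 for Lpcat1 (adjusted p = 0.0530), while the FTY difference of Etv5 was -0.57 (adjusted p = 0.0193). In a fit of the 16 arrays with a muscle mean of at most 10, which leaves 1 SEW array, the differences were -0.39 for Etv5 and -0.28 for Lpcat1 in the SEW lung and -0.73 for Etv5 in FTY lungs, none of them called. The lone SEW array is assumed there to vary like the other groups, with 8 residual degrees of freedom, so the missing SEW calls say nothing about stability. Lpcat1 was called in radiation lungs there (-0.41, adjusted p = 0.0414). This fit was chosen after the data were seen, and the part of admixed tissue in the group differences was not tested.

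**Figure D4:**
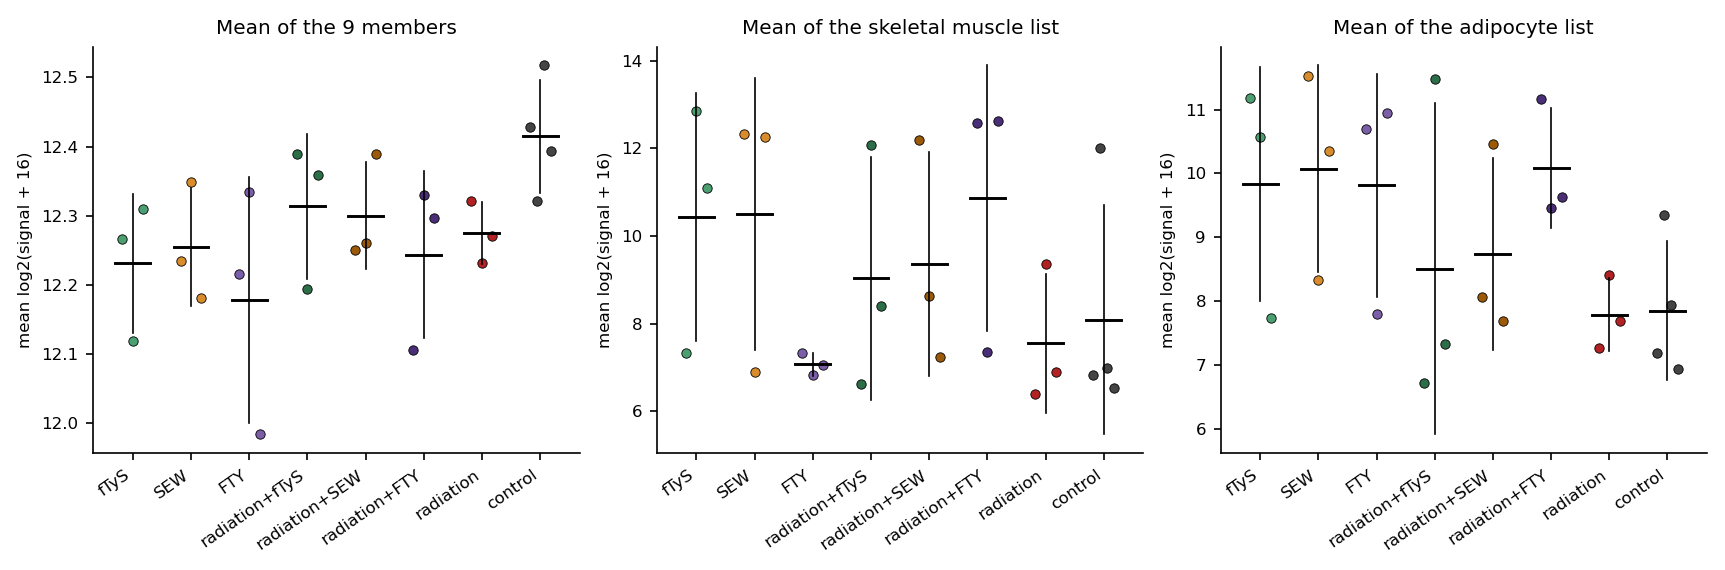
Mean log2(signal + 16) (y axes, none starting at 0) of the 9 members, of 6 skeletal muscle genes and of 4 adipocyte genes in each of 25 arrays, by group, with group means (horizontal bars) and SD (vertical bars). FTY replicate 3 is lowest for the members, 11.98, and arrays of several groups exceed 12 for muscle.

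RNA quality moved with the groups as well. The log2 ratio of the 3 prime to the 5 prime control probe sets of Gapdh, which rises as RNA breaks down, averaged -0.07 in SEW lungs, -0.03 in FTY lungs, 0.07 in fTyS lungs and 0.09 in radiation lungs, against 0.22 in control lungs. It averaged 0.08 in radiation+fTyS lungs, 0.19 in radiation+SEW lungs and 0.10 in radiation+FTY lungs, so it was higher with radiation than without it under SEW and FTY and lower without a compound, the direction of the called interactions. With this ratio as a covariate no member was called in SEW or FTY lungs against control or in their interactions, which were 0.36 for Lpcat1 with SEW (adjusted p = 0.246) and 0.62 for Etv5 with FTY (adjusted p = 0.0771). Against control, Etv5 then differed by -0.29 in SEW lungs (adjusted p = 0.294) and by -0.50 in FTY lungs (adjusted p = 0.148), and Lpcat1 by -0.28 in SEW lungs (adjusted p = 0.246). The part of RNA quality in the differences between groups was not tested.

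Other genes of type 2 cells were described from lists by count and median. Calls of list genes, here and below, were not put through the covariates, the fits without 1 array or the other settings. Those were read for the members only. Over all genes tested, 10.8% were called lower in SEW lungs and 2.25% in FTY lungs, and in radiation and fTyS lungs 4.4% and 0.178% were called in either direction. By limma 1942 of the 12937 genes had an unadjusted p under 0.05 in fTyS lungs, 3994 in SEW, 2390 in FTY and 2175 in radiation lungs. Among 16 further markers of these cells, all tested, 4 were lower in SEW lungs, 3 were lower in radiation lungs, and 0 were called by limma in fTyS or FTY lungs, where 6 and 7 had an unadjusted p under 0.05. Egfl6, an EGF-like secreted protein, differed by -0.38 ± 0.12 in SEW lungs and -0.61 ± 0.12 in radiation lungs (adjusted p = 0.0386 and 0.00485). Muc1, a membrane mucin, differed by -0.37 ± 0.09 and -0.34 ± 0.09, and Ppp1r14c, a phosphatase inhibitor, by -0.34 ± 0.10 and -0.43 ± 0.10 in the same order (adjusted p between 0.0101 and 0.0327). Dram1, a lysosomal membrane protein of autophagy, was lower in SEW lungs (-0.27 ± 0.07, adjusted p = 0.0243). Medians of the list were -0.17 for fTyS, -0.13 for SEW, -0.16 for FTY and -0.17 for radiation, where those over all genes were 0.005, -0.02, -0.01 and -0.01.

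Of 15 tested regulators of type 2 cells, 6 were lower in SEW lungs (10.8% of all genes), 4 in FTY lungs (2.25%) and 2 in radiation lungs (4.4% called in either direction). In fTyS lungs 0 were called by limma (0.178% of all genes), and 5 had an unadjusted p under 0.05 (1942 of all 12937 genes). Spry2, a feedback inhibitor of receptor tyrosine kinase signalling, had 751 to 824 signal units in SEW lungs, 768 to 879 in FTY lungs, 773 to 852 in radiation lungs and 884 to 938 in fTyS lungs, against 1080 to 1197 in control lungs. No array of these groups reached the lowest control array. Its differences were -0.53 ± 0.07 in SEW lungs (adjusted p = 0.000431), -0.48 ± 0.07 in FTY lungs (adjusted p = 0.00461) and -0.49 ± 0.07 in radiation lungs (adjusted p = 0.000357). The Spry2 difference in fTyS lungs, -0.32, was not called by limma (adjusted p = 0.0557). Erbb3, a receptor for neuregulins, was lower in SEW (-0.29 ± 0.08), FTY (-0.40 ± 0.08) and radiation lungs (-0.36 ± 0.08; adjusted p between 0.0184 and 0.0281). Its difference in fTyS lungs, -0.33, was not called by limma (adjusted p = 0.0853). Spry4 and Dusp6 of the same list were not called in any of these groups. Spry4 differed by -0.22 in SEW, -0.17 in FTY, 0.11 in radiation and 0.19 in fTyS lungs. The values of Dusp6 were -0.08, -0.08, 0.11 and -0.09 in the same order.

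Foxa2, a forkhead factor that binds surfactant promoters, was lower by this test in SEW lungs (-0.55 ± 0.11, adjusted p = 0.00313) and FTY lungs (-0.42 ± 0.11, adjusted p = 0.0403). It averaged 1180 ± 102 signal units in SEW lungs and 1291 ± 85 in FTY lungs, against 1731 ± 96 in control lungs (SD). In fTyS lungs Foxa2 averaged 1241 ± 112 and in radiation lungs 1363 ± 190 (SD). Its differences there, -0.48 (adjusted p = 0.0557) and -0.35 (adjusted p = 0.0729), were not called by limma. Foxa1 (-0.06 in SEW and 0.006 in FTY lungs) and Nkx2-1 (-0.02 and -0.04) were not called. Id2, a helix-loop-helix factor that lacks the basic DNA-binding region, differed by -0.45 ± 0.11 in SEW lungs and -0.46 ± 0.11 in FTY lungs (adjusted p = 0.0139 and 0.0353). Its differences in fTyS (-0.49, adjusted p = 0.0687) and radiation lungs (-0.08, adjusted p = 0.813) were not called by limma. Grhl2, an epithelial transcription factor, was lower in SEW lungs (-0.50 ± 0.11, adjusted p = 0.00615). The interaction was positive for Spry2 with each compound (fTyS 0.56 ± 0.10, SEW 0.70 ± 0.10 and FTY 0.52 ± 0.10; adjusted p = 0.0167, 0.000589 and 0.00707), and for Foxa2 with SEW and FTY (0.71 ± 0.16 and 0.61 ± 0.16; adjusted p = 0.00674 and 0.0254). The 3 interactions share the radiation and control arrays, so these values are not independent of each other. Medians of the regulators were -0.16 for fTyS, -0.22 for SEW, -0.17 for FTY and -0.19 for radiation, where those over all genes were 0.005, -0.02, -0.01 and -0.01.

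**Figure D5:**
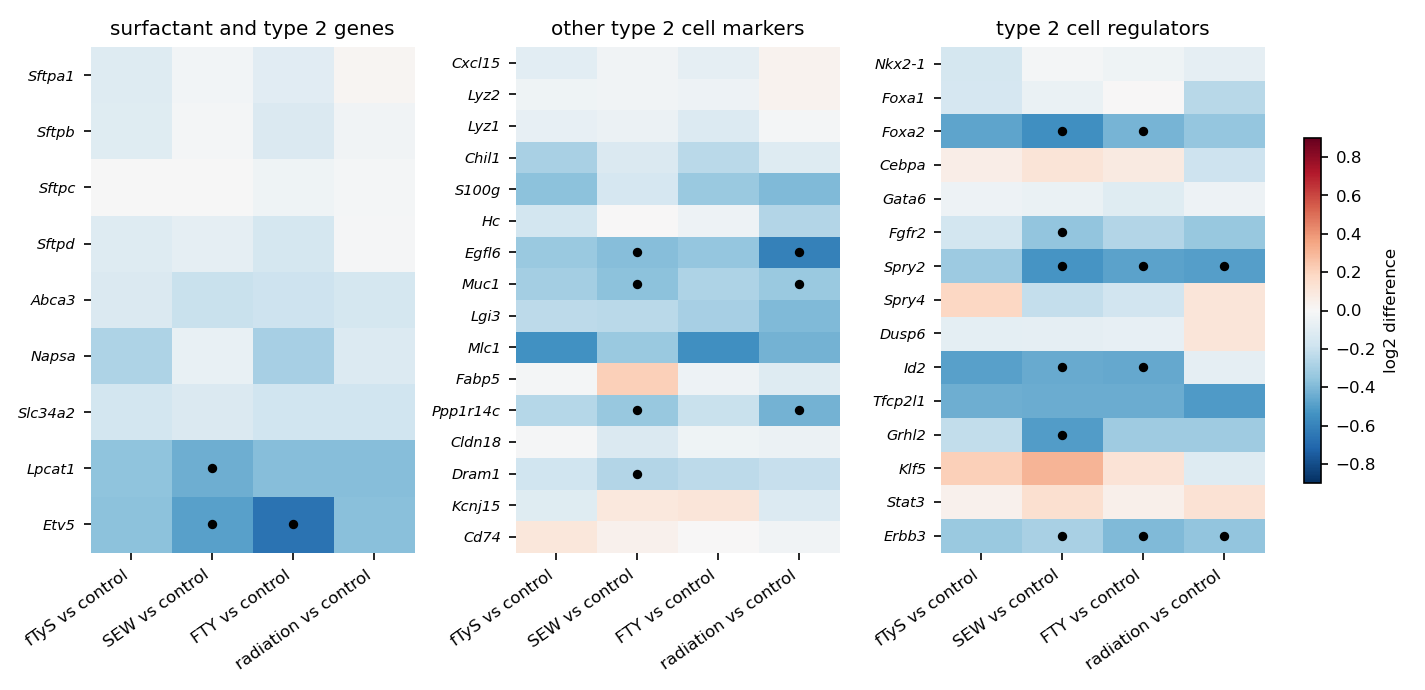
Log2 differences from control (colour, log2(signal + 16) scale, blue lower) of the 9 members, 16 further type 2 markers and 15 regulators in fTyS, SEW, FTY and radiation lungs. Dots mark an adjusted p of at most 0.05. Spry2 and Erbb3 carry dots in SEW, FTY and radiation lungs, and no gene carries one in fTyS lungs.

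None of 19 tested genes of surfactant lipid synthesis was called by limma against control in any of the 4 groups, with 2 in fTyS, 5 in SEW, 5 in FTY and 4 in radiation lungs at an unadjusted p under 0.05. Of all genes, 0.178% were called in fTyS, 14.6% in SEW, 2.73% in FTY and 4.4% in radiation lungs. In radiation+FTY lungs, Insig1, which holds back the SREBP pathway, and Srebf1, its transcription factor for fatty acid synthesis, were higher than in radiation lungs (0.59 ± 0.14 and 0.46 ± 0.12, adjusted p = 0.0319 and 0.0469), a comparison that called 3.02% of all genes. The adipocyte means of these arrays were 9.46 to 11.17 in radiation+FTY lungs and 7.27 to 8.40 in radiation lungs, without overlap, and the muscle means averaged 10.86 and 7.55. The part of admixed tissue in both genes was not tested. Of 12 tested genes of processing, secretion and turnover, Csf2rb and Csf2ra, the receptor chains through which macrophages are driven to clear surfactant, were higher in radiation lungs (1.18 ± 0.16 and 0.51 ± 0.14, adjusted p = 0.000342 and 0.0372). These receptors are also expressed by neutrophils, and all 6 tested neutrophil genes were higher in radiation lungs, with array means of 9.71 to 10.86 log2 units against 7.43 to 8.55 in control lungs for the 7 measured. Csf2rb was lower in radiation+fTyS (-0.75 ± 0.17), radiation+SEW (-0.93 ± 0.17) and radiation+FTY lungs (-0.63 ± 0.17) than in radiation lungs (adjusted p between 0.00754 and 0.0469). The neutrophil list averaged 8.44 in radiation+fTyS, 8.11 in radiation+SEW and 9.26 in radiation+FTY lungs, against 10.36 in radiation lungs, with 4, 6 and 2 of 6 genes called lower. These comparisons called 0.858%, 2.48% and 3.02% of all genes. The part of neutrophils in the receptor values was not tested. In SEW lungs Rab27a, a small GTPase of granule release, and Hps4, a subunit of a complex that builds lysosome-related organelles, were lower (-0.48 ± 0.12 and -0.27 ± 0.08, adjusted p = 0.0109 and 0.0243). That comparison called 10.8% of all genes lower.

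Of 8 genes of the transitional state of alveolar epithelium, Krt8, a keratin of that state, was higher in SEW lungs (0.22 ± 0.07, adjusted p = 0.0309) and Lgals3, a galectin also abundant in macrophages, in radiation lungs (0.40 ± 0.11, adjusted p = 0.0428). Itgb6, the beta subunit of an integrin that activates TGF-beta, was lower in both. It averaged 277 ± 42 signal units in SEW lungs and 297 ± 55 in radiation lungs, against 511 ± 25 in control lungs (SD), with differences of -0.86 ± 0.13 and -0.77 ± 0.13 (adjusted p = 0.000778 and 0.00129). No gene of the list was called by limma in fTyS or FTY lungs, where 0 and 1 had an unadjusted p under 0.05. Of all genes, 14.6% were called in SEW, 4.4% in radiation, 0.178% in fTyS and 2.73% in FTY lungs. Markers of the neighbouring alveolar type 1 cell, 9 genes, were called lower for 2 in SEW lungs (10.8% of all genes) and for none by limma in fTyS, FTY or radiation lungs, where 1, 1 and 0 had an unadjusted p under 0.05.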

How the data were processed

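Lung RNA (6 µg per array, per the labels) was labelled and hybridised to Affymetrix mouse arrays. The authors deposited linear signal intensities for every probe set of each array. GCOS is named without a version, per the submitters' processing notes. Background correction, summary method and scaling target are not given in the sources used here. Array medians lay between 118.33 and 129.58.

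Of 45101 probe sets, 64 controls were left out, 34945 had 1 gene symbol in the platform annotation, 932 several and 9160 none. Values became log2(signal + 16). The filter kept genes with a mean over the 40th percentile of all probe sets other than controls (6.49). No further normalization was applied. limma 3.58.1 in R 4.3.3 fitted the means of 8 groups with a trended eBayes (17 residual degrees of freedom) and gave 20 comparisons, adjusted within each by Benjamini-Hochberg. The fit was checked on simulated data with changes of 1 log2 unit in genes drawn independently. That check does not cover the smaller differences or the joint variation of the members. Besides the members, up to 4 called genes of a list are named, or values where none was called, and the genes most like the members by correlation. Spry4, Dusp6, Foxa1 and Nkx2-1 are named in addition, as uncalled regulators beside the called ones.

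Members, lists and tests were chosen with earlier results of these data known. Deviations of arrays with the same replicate number correlated above 0.1 for all 3 pairs in 5 of 16 comparisons: FTY with SEW, radiation+fTyS with either of its parts, and both fTyS and radiation with control. Alternatives were quantile normalization, median centring, pseudocounts of 1 and 64, no filter or one at the 60th percentile, the mean of a gene's probe sets, eBayes without trend, array weights, marker or Gapdh covariates, the replicate block, fits of the compared groups alone, and fits without 1 array. Leaving out arrays with a muscle mean over 10 log2 units was added after the data were seen. The alternatives were read for the members, not for single genes of the lists.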

Additional observations from a re-analysis of the deposited data

Results flagged for a closer look

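Among the 4 control arrays, the gap between the lowest value of Napsa, 3081 signal units in replicate 2, and the next, 3681, was 0.863 of the group's range on the log2 scale. The others were 3701 and 3786. Chance alone marks about 1 in 20 groups in this way, and 9 genes were looked at in the control group, the only group of 4. Because most of these genes vary together, they are not independent looks. Replicate 2 was the lowest control array for 6 of 9 members. Its muscle mean was 12.01 log2 units, against 6.54 to 6.99 in the other control arrays, and the part of admixed tissue was not tested.

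The radiation response of Lpcat1 differed between lungs with and without SEW, by an interaction of 0.58 ± 0.18 (adjusted p = 0.0325, limma). Radiation+SEW lungs had 3553, 3720 and 4171 against 3163, 3784 and 3083 in SEW lungs, so 1 SEW array lay within the irradiated range. Radiation lungs had 3307, 3431 and 3634 against 4312 to 5016 in control lungs. The radiation response of Etv5 differed likewise with FTY, by 0.78 ± 0.20 (adjusted p = 0.0282, limma). Radiation+FTY lungs had 1566, 1999 and 1610 against 1335, 1623 and 990 in FTY lungs, and without FTY replicate 3 the interaction was 0.60 (adjusted p = 0.0621). Over all genes, 13.9% were called in the SEW interaction (10.5% higher) and 6.84% in the FTY interaction (4.77% higher), against 1 of 9 members in each. Only 1 of 4 probe sets of Lpcat1 above the filter was called in the SEW interaction, and 1 of 3 of Etv5 in the FTY interaction. Both member calls ended with median centring, with the Gapdh ratio as a covariate and without certain single arrays.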

How the results depend on the processing

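No called difference of a member reversed under any setting run, but counts of members called did change. Against control, SEW called 2 lower; it called 1 with median centring, 1 with the mean of probe sets, 1 with the replicate block, 4 with array weights, and 0 with the muscle and adipocyte covariates, 0 with the Gapdh ratio and 0 in the arrays with little muscle signal. FTY called 1; it called 2 with array weights, and 0 with the mean of probe sets, with the Gapdh ratio, with only the arrays compared and in the arrays with little muscle signal. Radiation called 0; it called 3 with array weights, 2 with the muscle and adipocyte covariates, 1 with only the arrays compared and 1 in the arrays with little muscle signal, and fTyS called 2 with array weights, all lower. The SEW interaction called 1; it called 2 with array weights, with the muscle and adipocyte covariates and with only the arrays compared, and 0 with median centring, with the Gapdh ratio and in the arrays with little muscle signal. The FTY interaction called 1; it called 2 with the muscle and adipocyte covariates, and 0 with median centring, the mean of probe sets, the Gapdh ratio, the replicate block, only the arrays compared and the arrays with little muscle signal. The fTyS interaction called 3 with array weights. With array weights, radiation+fTyS against fTyS and radiation+SEW against SEW called 1 higher each, and fTyS against SEW and radiation+fTyS against radiation+FTY 2 higher each. Radiation+FTY against FTY called 1 higher with the muscle and adipocyte covariates. Leaving out 1 array gave 0 to 2 members for SEW, 0 to 1 for FTY, 0 to 1 for radiation+FTY against FTY, 0 to 1 for the SEW interaction, 0 to 2 for the FTY interaction and 0 for the other comparisons. The cause was not tested. The arrays with little muscle signal hold 1 array each of SEW, fTyS and radiation+FTY, assumed to vary like the other groups (8 residual degrees of freedom), so a call missing there in SEW or in either interaction says nothing about stability.

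Same-numbered arrays deviated together in 5 of 16 comparisons, with correlations between -0.81 and 0.78 over all pairs, and 7 of 25 arrays correlated best with their own number. With the replicate block, Etv5 differed by -0.49 in SEW lungs (adjusted p = 0.0543) and by 0.79 in the FTY interaction (adjusted p = 0.0529), and no other call of a member changed. Few arrays limit all calls: the median half-width of a 95% interval against control was 0.208 log2 units.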
